A study of Mus musculus with 9 samples.

Results

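The genes described here are the 2 receptors for corticosteroids, Nr3c1 and Nr3c2, the corticosteroid-activating enzyme Hsd11b1, and 3 genes known to be induced by these receptors, Fkbp5, Tsc22d3 and Sgk1. They are 6 of the 24346 genes in the files and were selected on knowledge of their expression in these same libraries, so their values are given as a description, with no test. RNA-seq was performed on B cells sorted from the spleens of C57BL6 mice in 3 groups of 3 libraries each. FO B (Young) and FO B (Aged) were follicular B cells, gated on high B220, low CD21 and the presence of CD23, without CD43, from mice aged 8 and 50 weeks. ABCs (Aged), the age-associated B cells, came from mice aged 50 weeks. They were gated on high B220, low CD21 and the presence of both CD11b and CD11c, without CD43 or CD23. All mice were wild type, and every group was isolated by sorting. The study describes the libraries of a group as separate mice, and neither it nor the labels say whether FO B (Aged) and ABCs (Aged) libraries of the same number came from 1 mouse.

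Corticosteroids cross the cell membrane and bind receptors held in the cytoplasm by Hsp90 and its partner proteins. The loaded receptor enters the nucleus, raises the transcription of some genes through glucocorticoid response elements in DNA, and lowers that of inflammatory genes in part by interfering with AP-1 and NF-kB. Nr3c1 encodes the glucocorticoid receptor, present in most cells and the mediator of the immunosuppressive and lymphocyte-killing actions of glucocorticoids, while Nr3c2 encodes the mineralocorticoid receptor, which binds aldosterone and also binds corticosterone with high affinity. Hsd11b1 regenerates active corticosterone from inactive 11-dehydrocorticosterone inside the cell, and Hsd11b2 carries out the opposite step.

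Expression was measured as FPKM, reads scaled to transcript length and to library size, which allows comparison between genes of different length. The libraries held approximately 7300000 to 8880000 mapped reads, as estimated from the FPKM that a single read adds to weakly expressed genes, and 10032 to 10445 genes reached 1 FPKM. The B cell receptor gene Cd79a ranged from 2462 to 3562 FPKM over the libraries. Tbx21, Itgam and Itgax together reached 278 to 292 FPKM in ABCs (Aged) and at most 9.34 in FO B (Aged), and the FO B genes Fcer2a and Cr2 together reached 844 to 886 in aged FO B libraries and 1.21 to 15.3 in ABC libraries, lowest in ABC replicate 3. Macrophage markers summed to 3.48 to 11.2 FPKM in aged FO B libraries and 4.75 to 14.4 in ABC libraries, dendritic cell markers to 2.46 to 5.08 and 4.04 to 7.12, T cell markers to 0.17 to 0.592 and 0.176 to 0.967, neutrophil markers to 0.987 to 23.9 and 0 to 0.918, and plasma cell markers to 129 to 148 and 191 to 225. NK cell markers summed to 0.6 to 1.01 and 24.4 to 38.0, of which only Prf1 had a mean of 1 FPKM or more in ABCs (Aged), with Klre1 and Gzmb at 0. The part of these differences in the results that follow was not tested.

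Differences are in log2(FPKM + 1), a scale that makes those of weakly expressed genes too small, and each is set against all genes that averaged 1 FPKM or more over the 6 libraries compared. Their standard errors (SE) come from a limma fit, which draws the variance of each gene towards that of genes of similar level. They are therefore not the spread of the 6 libraries alone, and can be smaller or larger than it implies. Between ABCs (Aged) and FO B (Aged), the median difference of 10412 genes was -0.01 and 95% of genes lay below 1.31. Between FO B (Aged) and FO B (Young), the median of 10122 genes was 0.00 and 95% lay below 0.31. Both comparisons contain the FO B (Aged) libraries, so their differences are not independent. Among the 6 corticosteroid genes, Nr3c2 and Hsd11b1 were higher in every ABC library than in every FO B (Aged) library, where 26.3% of all genes tested had such a separation upwards. Fkbp5 was lower in every ABC library, where 26.3% of all genes tested were separated downwards, and Nr3c1, Tsc22d3 and Sgk1 overlapped. Between FO B (Aged) and FO B (Young), Nr3c2 and Tsc22d3 lay above in every library, against 9.64% of all genes, none of the 6 lay below in every library, against 8.96%, and 4 overlapped.

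**Figure D1:**
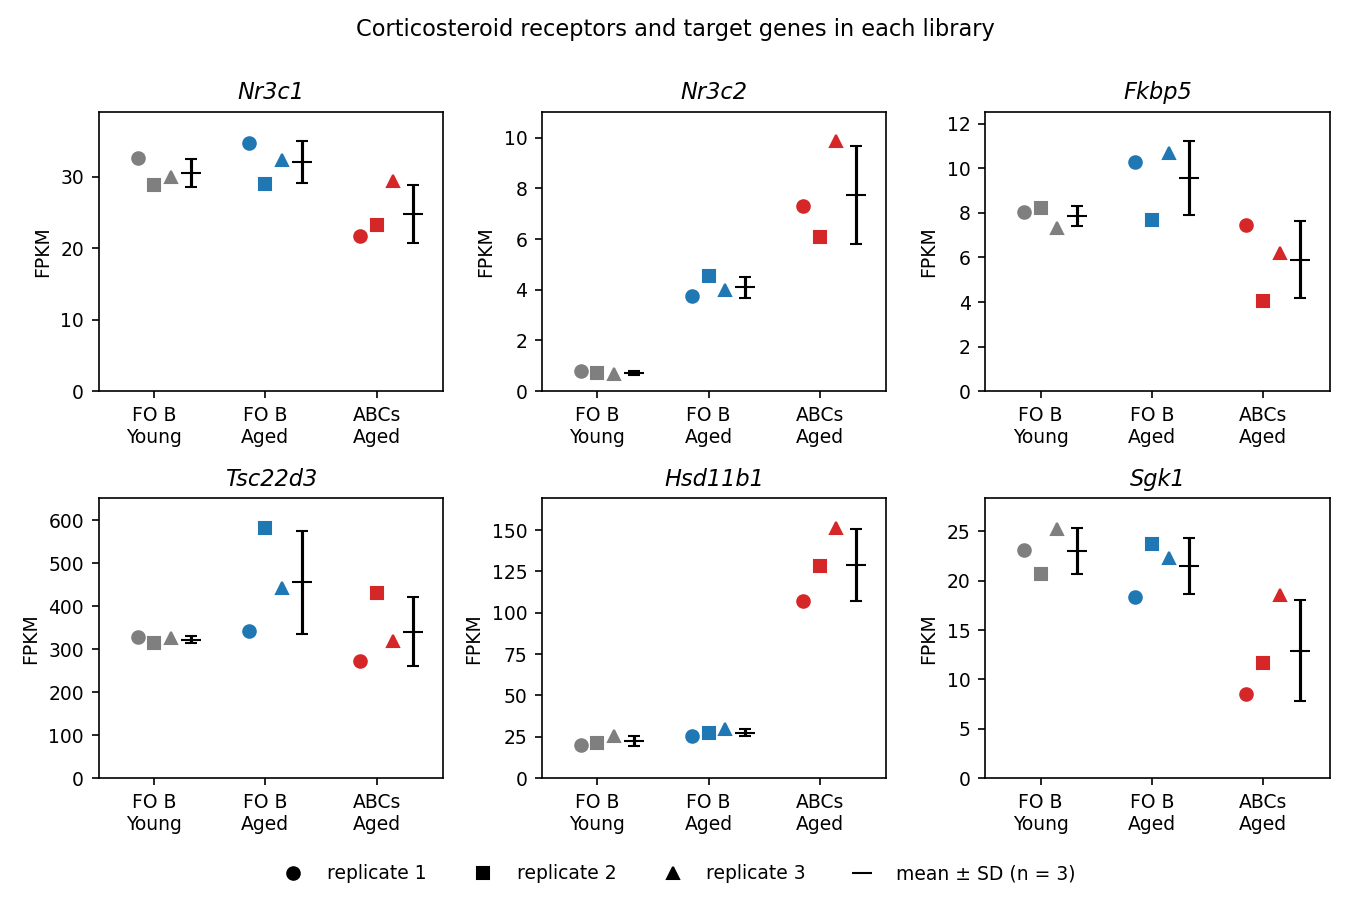
FPKM (linear axis from 0) of the 6 genes in the 3 libraries of each group, with a symbol for each replicate and the mean ± SD (n = 3) beside them. Nr3c2 and Hsd11b1 were highest in all 3 ABC libraries, Tsc22d3 was highest in FO B (Aged) replicate 2 at 580 FPKM, and Sgk1 of ABC replicate 3 at 18.6 FPKM reached the range of FO B (Aged).

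The glucocorticoid receptor gene Nr3c1 (ENSMUSG00000024431.15) lies on the minus strand of chromosome 18 from 39410545 to 39519421 in GRCm38, is protein coding with 9 annotated transcripts, and overlaps no other annotated gene. Its level was 32.6, 28.8 and 30.0 FPKM in the 3 FO B (Young) libraries, 34.8, 28.9 and 32.3 in FO B (Aged), and 21.7, 23.2 and 29.4 in ABCs (Aged). The young and aged FO B libraries overlapped, while ABC replicates 1 and 2 lay below every FO B library and ABC replicate 3 lay within their range. Means were 30.5 ± 1.95, 32.0 ± 2.93 and 24.8 ± 4.10 FPKM (SD, n = 3). The difference ABCs (Aged) minus FO B (Aged) was -0.36 ± 0.13 (SE), with 17.2% of genes tested lying lower, and -0.49 without ABC replicate 3. The difference FO B (Aged) minus FO B (Young) was 0.07 ± 0.09, smaller than its standard error. These levels rested on 4951, 5246 and 3871 reads in all for the 3 groups, in the order given. In bulk libraries, fewer cells that express a gene and less RNA in each cell cannot be told apart, and this holds for every level reported here.

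The mineralocorticoid receptor gene Nr3c2 (ENSMUSG00000031618.13) lies on the plus strand of chromosome 8 from 76899442 to 77245012 in GRCm38, with 8 annotated transcripts and 3 overlapping predicted genes, of which Gm10649 was listed at 0 in all 9 libraries. Its level was 0.812, 0.704 and 0.671 FPKM in FO B (Young), 3.74, 4.53 and 3.999 in FO B (Aged), and 7.29, 6.08 and 9.85 in ABCs (Aged). The 3 groups did not overlap, with the order FO B (Young), FO B (Aged), ABCs (Aged). Means were 0.729 ± 0.0737, 4.09 ± 0.405 and 7.74 ± 1.92 FPKM (SD, n = 3), so that mean FPKM was 5.61-fold higher in aged than in young FO B cells and 1.89-fold higher in ABCs than in aged FO B cells. On the log2 scale the difference with age was 1.56 ± 0.14 (SE), above that of 99.8% of genes tested, and the difference of ABCs from aged FO B cells was 0.76 ± 0.17, above that of 90% of genes. In the comparison with age, Nr3c2 averaged 1 FPKM or more only in FO B (Aged). The value moved with the pseudocount, to 2.34 with 0.1 in place of 1. The low level in young cells rested on 23 to 28 reads per library, and the lowest, 23 reads, had an exact Poisson 95% interval of 14.6 to 34.5 reads, which covers counting error only. FO B (Aged) libraries held 118 to 174 reads of Nr3c2 and ABC libraries 214 to 316.

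As a share of the FPKM of Nr3c1 in the same library, Nr3c2 stood at 2.49, 2.44 and 2.24% in FO B (Young), at 10.75, 15.66 and 12.39% in FO B (Aged), and at 33.61, 26.19 and 33.46% in ABCs (Aged). Nr3c1 was the more abundant receptor mRNA per length in every library, and the shares of the 3 groups did not overlap. The mean share was 2.39 ± 0.132%, 12.9 ± 2.5% and 31.1 ± 4.24% (SD, n = 3). Between the groups of 50 weeks the share combined a higher Nr3c2 with a lower mean Nr3c1, whereas between young and aged FO B cells the levels of Nr3c1 overlapped.

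Hsd11b1 (ENSMUSG00000016194.14), the enzyme that regenerates corticosterone, lies on the minus strand of chromosome 1 from 193221634 to 193264075 in GRCm38 and has 7 annotated transcripts. Its level was 20.3, 21.4 and 25.7 FPKM in FO B (Young), 25.6, 27.4 and 29.7 in FO B (Aged), and 107, 128 and 151 in ABCs (Aged). Every ABC library lay far above every FO B library, and the highest young library overlapped the lowest aged FO B library. Means were 22.5 ± 2.86, 27.6 ± 2.08 and 129 ± 21.9 FPKM (SD, n = 3), 4.68-fold higher in ABCs than in aged FO B cells. The log2 difference between these groups was 2.17 ± 0.13 (SE), above that of 98.1% of genes tested, and lay between 2.05 and 2.298 with any 1 library left out. The difference with age was 0.29 ± 0.10. In the order of FPKM among expressed genes, Hsd11b1 stood above 57.4 to 67.5% of genes in the FO B libraries and above 90.0 to 92.8% in ABCs. Of the 3 annotated genes that overlap it, Lamb3 had between 0.256 and 0.951 FPKM in the 9 libraries and no ABC library above 0.521.

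Genes that supply, inactivate, carry or export steroids, and the other steroid receptors, formed a list of 17, of which 6 reached a mean of 1 FPKM in the aged groups. This list and the lists below were chosen with earlier results of these data known. Counts and FDR of their genes describe these libraries and are not independent support. In the limma test across all genes (Benjamini-Hochberg FDR under 0.05), 3 of the 6 rose in ABCs (Aged) and none fell, where 19.4% of all genes tested were called higher and 16.5% lower. Of the 3, Abcb1b averaged 1 FPKM or more only in ABCs (Aged) and so entered the test through that group. The median difference of the list was 0.37, against -0.01 for all genes. Abcb1b, a P-glycoprotein exporter that accepts glucocorticoids among many substrates, stood at 0.475, 0.855 and 0.924 FPKM in FO B (Aged) and at 9.37, 7.92 and 10.96 in ABCs (Aged), with no overlap. Its difference was 2.57 ± 0.17 (SE, limma FDR 8.49e-05). H6pd, which generates the NADPH that Hsd11b1 uses in the endoplasmic reticulum, stood at 1.54, 1.74 and 1.39 FPKM in FO B (Aged) and 3.25, 2.53 and 2.26 in ABCs (Aged), a difference of 0.52 ± 0.16 (limma FDR 0.0396). Hsd17b4, a peroxisomal enzyme of fatty acid oxidation that also acts on steroids, rose by 0.41 (limma FDR 0.0154). The H6pd call was lost without FO B (Aged) replicate 1, 2 or 3 or ABC replicate 1 or 2 (FDR 0.0677 to 0.119), and also with the replicate block (0.0651), quantile normalization (0.103), TPM scaling (0.051) or no filter (0.0775). The call of Hsd17b4 was lost without FO B (Aged) replicate 1 or 3 (FDR 0.0578 and 0.0596). Named for its role rather than by a rule, Hsd11b2 was listed at 0 in 8 of the 9 libraries and at 0.0695 FPKM in FO B (Young) replicate 2. With age in FO B cells, none of the 4 genes tested passed, where 0.346% of all genes were called higher and 0.119% lower.

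Fkbp5 (ENSMUSG00000024222.17) encodes a co-chaperone that binds Hsp90 in the receptor complex and lowers the affinity of the glucocorticoid receptor for hormone, and it is itself induced by that receptor. It lies on the minus strand of chromosome 17 from 28399094 to 28517527 in GRCm38, with 15 annotated transcripts. Its level was 8.02, 8.20 and 7.33 FPKM in FO B (Young), 10.3, 7.67 and 10.7 in FO B (Aged), and 7.46, 4.05 and 6.18 in ABCs (Aged). All ABC libraries lay below all aged FO B libraries, by a small margin between ABC replicate 1 and FO B (Aged) replicate 2. Means were 7.85 ± 0.46, 9.56 ± 1.65 and 5.90 ± 1.72 FPKM (SD, n = 3). The difference of ABCs from aged FO B cells was -0.63 ± 0.21 (SE), with 7.6% of genes tested lying lower, and ranged from -0.80 without ABC replicate 1 to -0.43 without ABC replicate 2. The difference with age in FO B cells was 0.24 ± 0.13, with overlapping libraries. Totals of 765, 937 and 548 reads lay behind the 3 groups. In both aged groups replicate 2 had the lowest Fkbp5.

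All 22 genes of a list of receptor chaperones and co-regulators were expressed. Relative to FO B (Aged), 1 rose and 5 fell in ABCs (Aged), and 16 did not pass, where 19.4% of all genes tested were called higher and 16.5% lower. The list median was -0.20, against -0.01 for all genes. The histone acetyltransferases Crebbp and Ep300, coactivators of nuclear receptors, fell by 0.52 and 0.36 on the log2 scale (limma FDR 0.00525 and 0.0134). Crebbp stood at 14.4, 15.7 and 13.5 FPKM in FO B (Aged) and 10.1, 10.1 and 9.27 in ABCs (Aged), with no overlap. The Hsp90-binding immunophilin Ppid and the receptor-associated phosphatase Ppp5c fell by 0.45 and 0.46 (limma FDR 0.00219 and 0.00914). The coactivator Ncoa3 rose by 0.23 (limma FDR 0.0339). The calls of Crebbp, Ppid and Ppp5c held without each library in turn, whereas Ep300 was lost without FO B (Aged) replicate 3 (FDR 0.0551) and Ncoa3 without FO B (Aged) replicate 1, 2 or 3 or ABC replicate 1 (FDR 0.0718 to 0.107). Ncoa3 was also lost with the replicate block (FDR 0.0523), quantile normalization (0.0564) and TPM scaling (0.0606).

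With age in FO B cells none of the 22 passed, where 0.346% of all genes were called higher and 0.119% lower. The list median was 0.15, against 0.00 for all genes. Here FO B (Aged) replicate 2 stood apart from the other aged FO B libraries for several chaperones, which were named after their values were seen. Hspa8, the constitutive Hsp70 that hands receptors to Hsp90, was at 783, 589 and 751 FPKM in FO B (Young) and at 1655, 962 and 1541 in FO B (Aged), with replicate 2 lowest. The Hsp70-Hsp90 adaptor Stip1 was at 84.97, 74.2 and 68.3 FPKM in FO B (Young) and at 144, 77.3 and 138 in FO B (Aged), again lowest in replicate 2. In ABCs (Aged) replicate 2 was also the lowest of the 3 for Hspa8, at 855 FPKM against 1320 and 1268, and for Stip1, at 77.2 against 119 and 128.

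Tsc22d3 (ENSMUSG00000031431.13) encodes GILZ, a leucine zipper protein that is induced by glucocorticoids and restrains NF-kB and AP-1 in lymphocytes. It lies on the minus strand of chromosome X from 140539528 to 140600659 in GRCm38, with 6 annotated transcripts and no overlapping gene. Its level was 327, 314 and 326 FPKM in FO B (Young), 343, 580 and 442 in FO B (Aged), and 273, 430 and 319 in ABCs (Aged). It was the most abundant of the 6 mRNAs per length in every library, above 96.2 to 98.4% of expressed genes. Young libraries were tightly grouped, every aged FO B library lay above them, and replicate 2 was the highest within both aged groups. Means were 322 ± 7.54, 455 ± 119 and 341 ± 80.8 FPKM (SD, n = 3). The difference with age was 0.46 ± 0.16 (SE), above that of 97.7% of genes tested, and 0.27 without FO B (Aged) replicate 2. The difference of ABCs from aged FO B cells was -0.41 ± 0.22, with overlapping libraries, and it was -0.22 without FO B (Aged) replicate 2 and -0.26 without ABC replicate 1. ABCs and young FO B cells could not be ordered, since the young libraries lay within the range of the ABC libraries. The sum of Xist and 4 Y-linked genes was 19.2 to 22.1 FPKM in the 9 libraries, with the Y-linked genes at 0 in all.

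Sgk1 (ENSMUSG00000019970.15) encodes a serum- and glucocorticoid-regulated kinase that phosphorylates Nedd4l, Ndrg1 and Foxo proteins and is a classical target of both receptors. It lies on the plus strand of chromosome 10 from 21882184 to 21999903 in GRCm38, with 13 annotated transcripts. Its level was 23.1, 20.7 and 25.2 FPKM in FO B (Young), 18.3, 23.8 and 22.3 in FO B (Aged), and 8.53, 11.7 and 18.6 in ABCs (Aged). ABC replicates 1 and 2 lay below every FO B library, whereas ABC replicate 3 lay just above FO B (Aged) replicate 1. Means were 23.0 ± 2.29, 21.5 ± 2.81 and 12.9 ± 5.13 FPKM (SD, n = 3), 1.66-fold higher in aged FO B cells than in ABCs. The difference of ABCs from aged FO B cells was -0.75 ± 0.25 (SE), with 5.9% of genes tested lying lower, -0.50 without ABC replicate 1 and -1.02 without ABC replicate 3. The difference with age was -0.10 ± 0.11, within its standard error, and 0.005 without FO B (Aged) replicate 1.

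**Figure D2:**
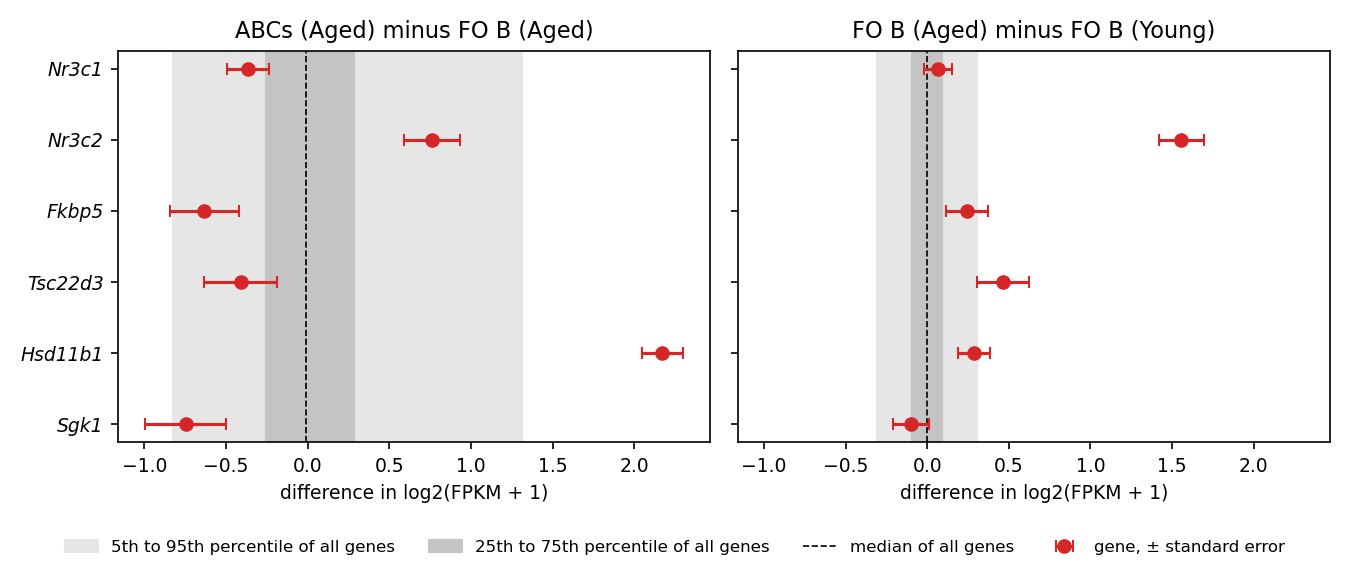
Differences in log2(FPKM + 1) of the 6 genes with standard errors of the limma fit (x axis) in both comparisons, over shaded percentile ranges and the dashed median of all genes. Hsd11b1 at 2.17 in ABCs and Nr3c2 at 1.56 with age lay outside the range from the 5th to the 95th percentile, as did Tsc22d3 at 0.46 with age.

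Promoter windows of 300 bases, from 250 before to 50 after an annotated start, were taken from RefSeq on GRCm38.p6 for 5 of the 6 genes, 12 windows in all. They were searched on both strands for the hexamer AGAACA or its complement TGTTCT, the core of the response element that both receptors bind, and for the palindrome of AGAACA and TGTTCT with any 3 bases between them, which contains both hexamers. The palindrome was found in 3 of 32851 windows of all genes (0.00913%) and the hexamer in 6233 (19.0%). Of the 12 windows, 4 held the hexamer, 3 of Sgk1 and 1 of Tsc22d3, where it began at position -185 from the start. Only Sgk1 and Tsc22d3 had more than 1 window, from alternative starts, so the share of windows is not a share of genes. The palindrome was in a single window, of Sgk1, beginning at position -189 from the start, with another hexamer at -242. That window is shown with these letters in capitals, beside the windows of Nr3c2 and Hsd11b1, the genes with the largest differences between groups, which did not hold the letters searched. The Sgk1 window is chr10:21993640-21993939 on the plus strand, that of Nr3c2 chr8:76902080-76902379 on the plus strand and that of Hsd11b1 chr1:193242311-193242610 on the minus strand, each written 5′ to 3′ along its gene.
Sgk1: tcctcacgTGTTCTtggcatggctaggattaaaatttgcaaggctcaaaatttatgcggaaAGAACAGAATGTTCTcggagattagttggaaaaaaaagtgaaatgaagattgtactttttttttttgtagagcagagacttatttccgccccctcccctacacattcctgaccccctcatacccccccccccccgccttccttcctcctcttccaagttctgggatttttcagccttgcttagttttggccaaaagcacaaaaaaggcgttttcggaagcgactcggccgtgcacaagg
Nr3c2: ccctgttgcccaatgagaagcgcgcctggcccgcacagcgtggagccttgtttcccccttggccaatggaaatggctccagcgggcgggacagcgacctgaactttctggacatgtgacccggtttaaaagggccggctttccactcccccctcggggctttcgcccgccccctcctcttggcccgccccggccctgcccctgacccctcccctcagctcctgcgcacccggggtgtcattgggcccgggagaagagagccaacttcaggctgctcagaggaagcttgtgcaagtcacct
Hsd11b1: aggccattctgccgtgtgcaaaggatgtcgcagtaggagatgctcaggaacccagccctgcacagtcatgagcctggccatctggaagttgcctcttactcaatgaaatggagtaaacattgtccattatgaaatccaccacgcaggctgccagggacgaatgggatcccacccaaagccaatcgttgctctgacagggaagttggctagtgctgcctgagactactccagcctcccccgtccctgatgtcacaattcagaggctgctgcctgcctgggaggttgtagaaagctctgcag
A match is a description of the letters and does not show that a receptor binds there. Sgk1, with the palindrome, and Tsc22d3, with the hexamer, were both lower on average in ABCs than in aged FO B cells, with overlapping libraries. Fkbp5, whose window held neither, was lower as well, by -0.63 on the log2 scale and without overlap. A relation between these letters and the direction of a difference was not tested. The windows of the list of glucocorticoid-induced genes held the hexamer in 4 of 33 (12.1%) and the palindrome in none.

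Partners, substrates and relatives of Sgk1 and Tsc22d3 formed a list of 17, of which 12 were tested. In ABCs (Aged) 8 of the 12 fell relative to FO B (Aged) and none rose, where 16.5% of all genes tested were called lower. The list median was -0.58, against -0.01 for all genes. Tsc22d1, a gene of the same leucine zipper family, stood at 11.7, 17.8 and 11.6 FPKM in FO B (Aged) and at 2.90, 3.04 and 2.36 in ABCs (Aged), a difference of -1.94 ± 0.18 (SE, limma FDR 0.000324). Sgk3, a kinase related to Sgk1, stood at 15.9, 15.4 and 15.2 FPKM in FO B (Aged) and at 8.83, 6.52 and 5.03 in ABCs (Aged), a difference of -1.11 ± 0.17 (limma FDR 0.00283). The ABC libraries of both genes lay below every aged FO B library. Rictor, a subunit of the mTORC2 complex that activates Sgk kinases, fell by 0.82 (limma FDR 0.00237), and the sodium pump subunit Atp1b1 by 1.28 (limma FDR 0.00857). Ndrg1, an Sgk1 substrate, fell by 1.22 (limma FDR 0.0224) from a mean of 2.55 FPKM in FO B (Aged) to 0.531 in ABCs (Aged), and it averaged 1 FPKM or more only in FO B (Aged). The remaining 3 calls, named to complete the count after their values were seen, were Nedd4l (-0.76), Foxo1 (-0.39) and Tsc22d4 (-0.32). Calls were lost without FO B (Aged) replicate 1 or 2 or ABC replicate 2 for Ndrg1 (FDR 0.055 to 0.0821), without FO B (Aged) replicate 1, 2 or 3 for Foxo1 (FDR 0.0643 to 0.0821), and without FO B (Aged) replicate 1 or 2 or ABC replicate 1 or 2 for Tsc22d4 (FDR 0.0558 to 0.0784). The other 5 held without each library in turn. None of the 12 passed with age in FO B cells, where 0.346% of all genes were called higher and 0.119% lower. The list median with age was -0.05. Tsc22d1 stood at 23.3, 19.2 and 19.2 FPKM in FO B (Young), above every aged library, at a difference of -0.57 (limma FDR 0.186).

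Of a list of 30 genes known to be induced by glucocorticoids, 19 were expressed in the aged groups. Of these, 3 rose and 5 fell in ABCs (Aged) and 11 did not pass, against 19.4% of all genes called higher and 16.5% lower. The list median was -0.16, against -0.01 for all genes. Of the 8 called genes, Mt1 and Cebpd averaged 1 FPKM or more only in ABCs (Aged) and Ddit4 only in FO B (Aged), so they could enter the test only by being high in that group. Mt1, a metallothionein, stood at 0, 0.616 and 0.685 FPKM in FO B (Aged) and at 3.34, 10.8 and 6.63 in ABCs (Aged), a difference of 2.39 ± 0.38 (SE, limma FDR 0.00307). Cebpd, a C/EBP transcription factor, rose by 1.56 (limma FDR 0.00858), and Dusp1, a phosphatase that inactivates MAP kinases, by 1.32 (limma FDR 0.0387), from 44.4, 93.4 and 76.2 to 97.9, 186 and 274 FPKM. Pik3ip1, an inhibitor of PI3 kinase, stood at 30.4, 34.3 and 30.9 FPKM in FO B (Aged) and at 10.4, 13.8 and 1.90 in ABCs (Aged), lowest in replicate 3, a difference of -2.06 ± 0.55 (limma FDR 0.0246). Sesn1, a stress-induced inhibitor of mTORC1, fell by 1.63 (limma FDR 0.0216), Zfp36l2, an mRNA decay factor, by 0.99 (FDR 0.0246), Ddit4, another mTORC1 inhibitor, by 0.86 (FDR 0.0408), and the antiproliferative gene Btg2 by 0.29 (FDR 0.0245). Mt1 and Cebpd were called without each library in turn. Pik3ip1 and Sesn1 were lost without FO B (Aged) replicate 1, 2 or 3 (FDR 0.0616 to 0.0724), Zfp36l2 without FO B (Aged) replicate 2 or 3 or ABC replicate 1 (FDR 0.0609 to 0.0756), and Btg2 without FO B (Aged) replicate 1 or 3 or ABC replicate 1 (FDR 0.0695 to 0.0888). Ddit4 was lost without FO B (Aged) replicate 3 or any ABC replicate (FDR 0.0595 to 0.102) and Dusp1 without FO B (Aged) replicate 1 or 3 or ABC replicate 2 or 3 (FDR 0.066 to 0.121). Among well-known targets named after their values were seen, the clock gene Per1 stood at 2.69, 2.76 and 1.69 FPKM in FO B (Aged) and 2.36, 2.65 and 2.48 in ABCs (Aged), and the thioredoxin inhibitor Txnip at 309, 401 and 343 and at 312, 372 and 335, with limma FDR of 0.79 and 0.799. Immediate-early genes, which are also induced by tissue handling, summed to 446 to 496 FPKM in the young libraries, 638 to 768 in aged FO B libraries and 1280 to 2070 in ABC libraries, and their part in the values of Dusp1 and the other genes was not tested.

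**Figure D3:**
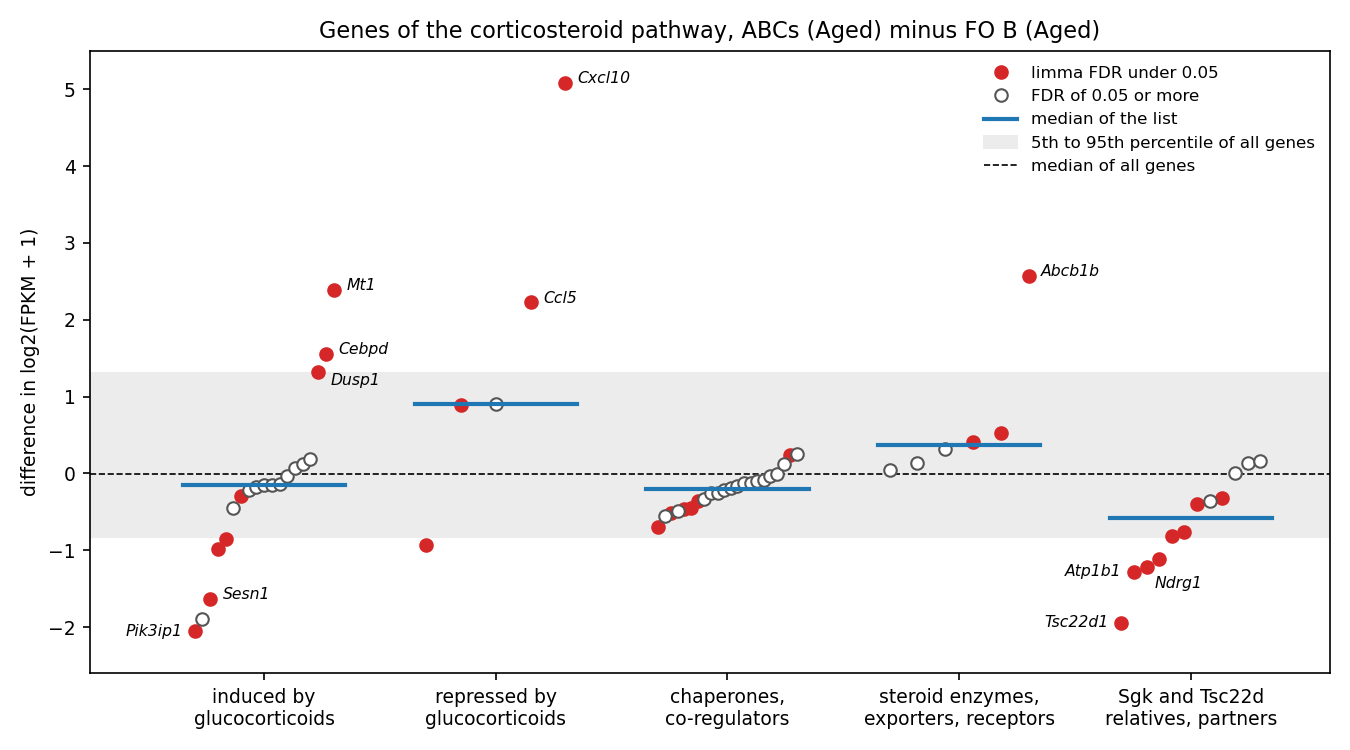
Difference in log2(FPKM + 1) (y axis) of each tested gene of the 5 lists between ABCs (Aged) and FO B (Aged), with filled points for limma FDR under 0.05, bars for list medians, and the 5th to 95th percentile range of all genes shaded. The Sgk and Tsc22d list had 8 of 12 genes filled, all below 0, and the induced list 3 above and 5 below. Over all genes tested, 19.4% were called higher and 16.5% lower. Mt1, Cebpd, Abcb1b, Cxcl10 and Ccl5 averaged 1 FPKM or more only in ABCs (Aged), and Ddit4 and Ndrg1 only in FO B (Aged).

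With age in FO B cells, 1 of the 17 induced genes tested rose and none fell, where 0.346% of all genes were called higher and 0.119% lower. It was Cebpb, a C/EBP transcription factor, at 6.72, 7.14 and 6.50 FPKM in FO B (Young) and at 15.7, 17.5 and 15.6 in FO B (Aged), a difference of 1.15 ± 0.09 (SE, limma FDR 0.002). The groups did not overlap. In ABCs (Aged) it stood at 22.1, 31.1 and 7.96 FPKM, a wide spread that reached below the aged FO B libraries, and the difference from FO B (Aged) did not pass the test (0.12 ± 0.42, limma FDR 0.838). The call with age was lost when all 9 libraries shared 1 estimate of the spread (FDR 0.344).

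A list of 16 inflammatory genes known to be repressed by glucocorticoids was mostly silent, and 11 did not reach a mean of 1 FPKM in the aged groups. Of the 5 tested, 3 rose and 1 fell in ABCs (Aged), where 19.4% of all genes were called higher and 16.5% lower. Of the 3 that rose, Cxcl10 and Ccl5 averaged 1 FPKM or more only in ABCs (Aged), so they entered the test through the group where they were high, and no count over the 5 speaks for the list. The interferon-induced chemokine Cxcl10 stood at 0.693, 0.342 and 0.634 FPKM in FO B (Aged) and at 38.6, 34.6 and 102 in ABCs (Aged), a difference of 5.08 ± 0.38 (SE, limma FDR 0.000143). The chemokine Ccl5 was listed at 0 in all FO B (Aged) libraries and at 1.92, 4.52 and 5.34 FPKM in ABCs (Aged) (limma FDR 0.00141). The adhesion molecule gene Icam1 rose by 0.89 (limma FDR 0.000649), from 66.4, 55.4 and 53.5 to 117, 104 and 105 FPKM. The cytokine gene Tnf went the other way, from 12.2, 11.1 and 12.6 FPKM to 5.75, 5.28 and 6.29, and fell by 0.94 (limma FDR 0.000733). These 4 calls held without each library in turn. Neither of the 2 genes tested passed with age in FO B cells, where 0.346% of all genes were called higher and 0.119% lower.

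The genes whose profiles over the 9 libraries were most like each of the 6 were found by the root mean square difference of centred log2(FPKM + 1) values, among 10375 genes that averaged 1 FPKM or more. For Nr3c1 they were Zmynd11, Fam208b and Mtmr4, at 0.068 to 0.074, where the profile of Nr3c1 itself varied by 0.204. For Nr3c2 they were Rgmb, Prodh and Serpina3g, at 0.351 to 0.36 against a variation of 0.977, the farthest in absolute distance among the 6 genes. Fkbp5 was most like Rbm41, Fkbp4 and Gm12250 (0.124 to 0.138 against 0.338), and Fkbp4 encodes the immunophilin that competes with the Fkbp5 product in the receptor complex. Tsc22d3 was most like 1110065P20Rik, Brf2 and Map2k3os (0.122 to 0.174 against 0.315). Hsd11b1 was most like Naip5, Timd2 and Tubb2a (0.13 to 0.162 against 1.109), and Sgk1 most like Tjp3, Plekhg3 and Mapk3 (0.143 to 0.166 against 0.464). Timd2 lay at 0.382 FPKM or less in every FO B library and reached the filter through the ABC libraries (3.60 to 5.28 FPKM). The log2(FPKM + 1) scale makes the difference of so weak a gene too small, so the likeness of Timd2 to Hsd11b1 depends on that scale. No gene of the 6 was among the 3 most like any other of the 6.

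**Figure D4:**
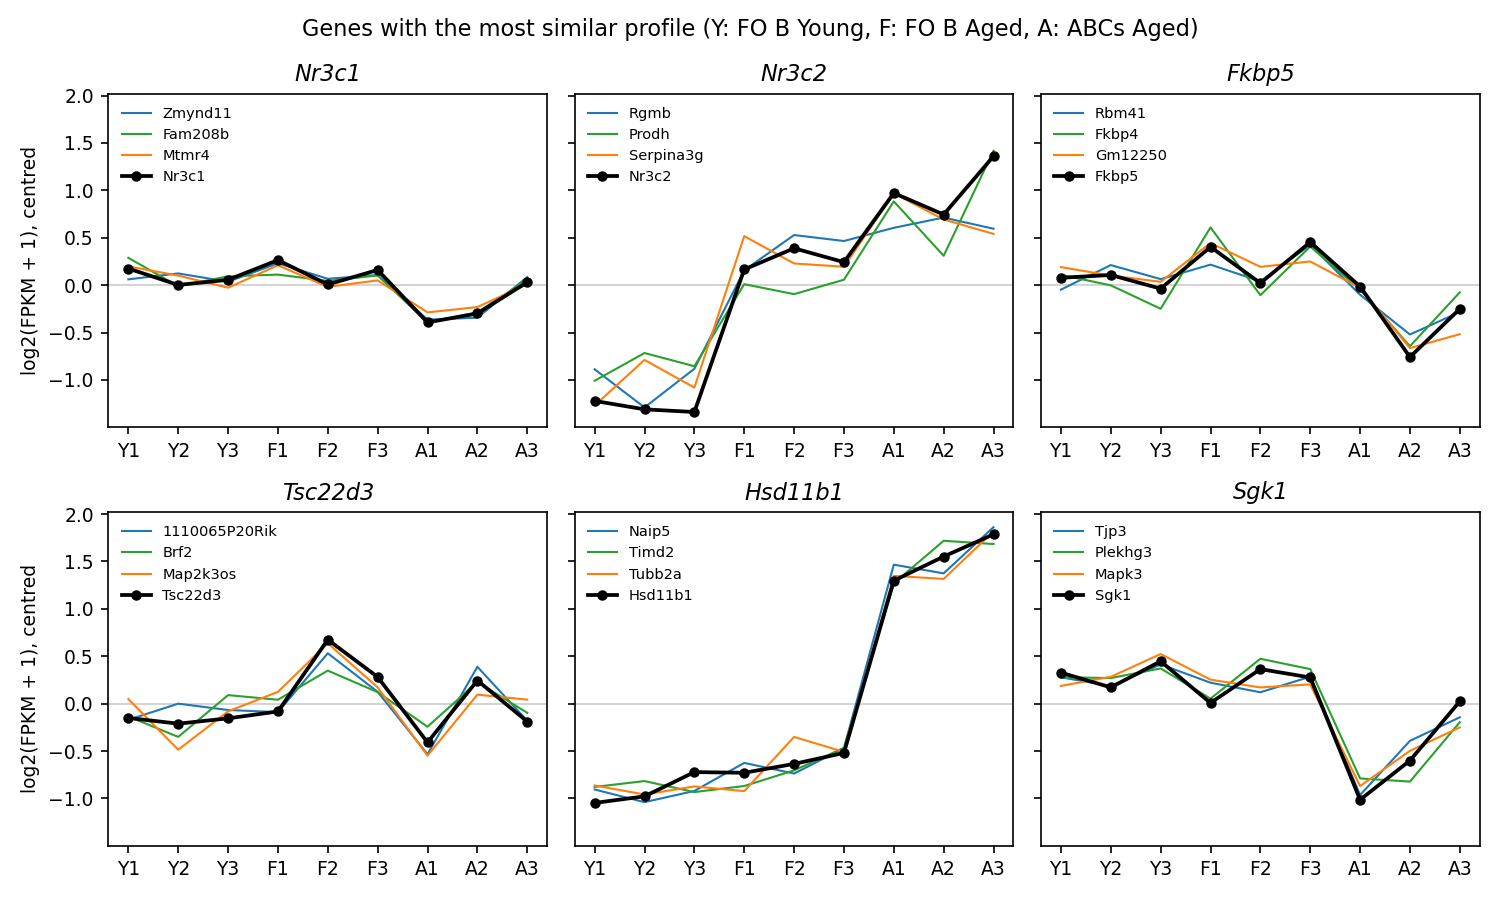
Centred log2(FPKM + 1) (y axis) of each of the 6 genes (black, with points) and of the 3 genes most like it (coloured lines) over the 9 libraries (x axis). The Hsd11b1 matches lay at 0.13 to 0.162 from it, and the Nr3c2 matches farther off at 0.351 to 0.36. Of the Hsd11b1 matches, Timd2 was at 0.382 FPKM or less in every FO B library.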

How the data were processed

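The 9 RNA-seq libraries were grouped by the sample labels. The authors made cDNA from sorted cells, sequenced 101-base single-end reads and mapped them to mm10, and they deposited FPKM values per gene symbol. The submitters' processing notes name TopHat2 2.1.1, Bowtie2 2.2.8, SAMtools 0.1.18 and Cuffdiff 2.2.1. The annotation is not given in the sources used here. Gene positions came from GENCODE M21 on GRCm38. The 6 genes and all lists were chosen with earlier results of these data known.

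Values were tested with limma 3.58.1 in R 4.3.3 (lmFit, eBayes with a trend) on log2(FPKM + 1), with the 6 libraries of the 2 groups compared, genes that averaged 1 FPKM or more and a Benjamini-Hochberg FDR under 0.05 over all genes tested. The scripts were tested on simulated data. The lists' genes named were the up to 5 with the largest called difference in each direction between the aged groups, every gene called with age, and the 3 genes most like each of the 6. Genes below 1 FPKM were not tested, and some items are not reported here.

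The FPKM step of a single read in weakly expressed genes was used to estimate depth, and whole reads for 3 of the 6 genes (Nr3c1, Nr3c2, Fkbp5). Intervals cover counting error only. Alternatives were the pseudocount, the filter, quantile or TPM scaling, all 9 libraries in the fit, a replicate block, leaving out each library, and the thresholds of the study. Python 3.11.15, numpy 2.4.6, pandas 2.3.3, scipy 1.17.1 and matplotlib 3.10.9 were used.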

Additional observations from a re-analysis of the deposited data

How the results depend on the processing

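Under the settings tried, the differences of the 6 genes kept their sign, except that of Sgk1 with age, which went from -0.10 to 0.005 without aged FO B replicate 1. With 3 libraries per group, an exact permutation test cannot give a two-sided p below 0.1. Between ABCs (Aged) and FO B (Aged), calls of the induced list went from 8 to 4 without the filter and to 5 with a mean of at least 5 FPKM, where the Sgk and Tsc22d list went from 8 to 5. At an FDR of 0.01 and a difference above 2.3, the thresholds of the study, calls went from 3739 to 200 for all genes, to 1 for the induced, repressed and steroid supply lists, and to 0 for the chaperone and the Sgk and Tsc22d lists. Leaving out each library gave 2 to 8 calls for the induced list. They were 2 and 3 without aged FO B replicates 3 and 1, and 5 without ABC replicate 1. The Sgk and Tsc22d list had 5 to 9 calls (5 without FO B (Aged) replicate 1 or 2). The chaperones had 3 to 7 (3 without FO B (Aged) replicate 3) and steroid supply 1 to 3 (1 without FO B (Aged) replicate 1 or 3). In the same fits, calls over all genes fell to between 2550 and 3643. They were 2550 and 2659 without aged FO B replicates 1 and 3. Between FO B (Aged) and FO B (Young), calls over all genes went from 47 to 15 without the filter, 18 with all 9 libraries and 2 at the thresholds of the study, and to 19 to 69 with 1 library left out (19 without aged FO B replicate 1, and 21 and 23 without young replicates 1 and 2). The 1 call of the induced list went to 0 with all 9 libraries and at the thresholds of the study. Leaving out FO B (Aged) replicate 2 gave 4 calls for the chaperones (range 0 to 4) and 1 for the Sgk and Tsc22d list (range 0 to 1), where calls over all genes were 69, of which 48 higher. The Nr3c2 difference with age moved from 1.56 to 2.34 with a pseudocount of 0.1 and to 1.74 with TPM scaling, and could not be fitted at a mean of at least 5 FPKM. Without the filter, Ddit4, Dusp1, Pik3ip1, Sesn1 and Zfp36l2 had an FDR of 0.0503 to 0.0832. At a mean of at least 5 FPKM, Mt1, Cebpd and Ddit4 of the induced list fell below the filter and were not tested. The same held for Atp1b1, Nedd4l and Ndrg1 of the Sgk and Tsc22d list. The other calls of both lists held at that setting. The cause of the other changes was not tested. The labels say nothing of a shared mouse or batch behind a number, and not every library correlated best with its own number (correlations of deviations of same-numbered libraries -0.019 to 0.108 between the aged groups and -0.092 to 0.138 between the FO B groups). The replicate block gave 3448 calls between the aged groups and 37 with age over all genes, and 1 call for the chaperones with age (Hspa8, FDR 0.0119). Of the counts reported above 0, 87 of 112 stayed within 1.5 times their value. Of the differences of the 6 genes, 106 of 108 moved by less than the spread between replicates (the filter, the 9-library fit and the block cannot change them). Most of the 108 left out 1 library, which with 3 per group cannot move a difference beyond that spread. The count therefore does not measure how stable the differences were. The 2 that moved were those of Nr3c2 with age, with a pseudocount of 0.1 and with TPM scaling. Depth limits Nr3c2 in FO B (Young), at 23 to 28 reads per library.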
